A study of Homo sapiens with 46 samples.

Results

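KBTBD8 and CUL3 encode 2 parts of one ubiquitin ligase, and their transcripts were followed through neural conversion of human embryonic stem cells in which a short hairpin RNA targeted KBTBD8. Both genes were located by their UCSC transcript identifiers and by the length value that each deposited file gives for a row, whose unit is not stated. KBTBD8 was row uc003dmy.3, with a length value of 582. CUL3 was row uc002vny.3, the 1 version of that identifier present, and its length value lay within 1 of the one required. These were 2 of the 63691 rows that each of the 46 libraries reports.

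The cells belonged to the established line H1, human embryonic stem cells kept feeder-free in mTESR1 medium, and were infected with lentivirus carrying a hairpin against KBTBD8 (shKBTBD8), a hairpin against TCOF1 (shTCOF1) or a control hairpin (shControl). They were sampled as stem cells (hES) or after 1, 3 or 6 days in NIM, the medium used for neural conversion (ND1, ND3 and ND6). Each state was measured by mRNA sequencing and by ribosome profiling, which sequences the mRNA fragments that ribosomes protect from RNase I (footprints). Titles written in 2 styles divide the libraries into a first set of 32 (shKBTBD8 and shControl at 4 stages, 2 numbered replicates per group) and a second set of 14 with 7 per assay, in which shKBTBD8 and shTCOF1 had 1 library each at hES and at ND3, and shControl had 2 at hES and 1 at ND3. All 3 groups thus carry a lentiviral hairpin. The labels give neither the hairpin sequences nor the number of hairpins per gene. They do not say whether replicates were separate cultures, so a p-value here reflects no more than the spread among these libraries, and that spread may be technical.

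CUL3 is the scaffold of a cullin-RING ligase: its carboxy-terminal end binds the RING protein RBX1, which recruits the ubiquitin-loaded E2 enzyme, and its amino-terminal end binds a BTB-domain adaptor that holds the substrate. KBTBD8 is such an adaptor, with BTB, BACK and Kelch domains. In human embryonic stem cells and in Xenopus embryos the CUL3 ligase with KBTBD8 is known to ubiquitylate TCOF1 (treacle) and NOLC1, nucleolar proteins of ribosome production, and to be needed for neural crest specification. CUL3 itself serves many adaptors in most cell types.

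Depth was counted with 1 row kept for each group of neighbouring rows with proportional counts. For mRNA libraries it was 16.3 to 27.1 M (units of 1000000 counts) in the first set and 11.3 to 29.2 M in the second. Footprint libraries were shallower, with 1.03 to 10.2 M and 4.07 to 7.93 M. Levels are given as counts per 1000000 (CPM), scaled within each assay and set, and square brackets hold exact Poisson 95% intervals, which cover counting error only. The share of transcripts with no count was highest in 3 footprint libraries: shKBTBD8 replicate 2 at ND3 and at ND6 in the first set (21.8% each) and hES shControl replicate 2 in the second (16.4%). Next came the ND3 shControl library of the second set (13.2%) and hES shKBTBD8 replicate 2 of the first (12.1%). The ND3 shKBTBD8 library of the first set and the hES shControl library of the second, both replicate 2, also went against their labels in KBTBD8. CUL3 had a count in all 46 libraries, at least 237 reads in each, and KBTBD8 in 44. KBTBD8 reads were few in footprints, and in the first set no footprint library held more than 155. Stem cell and neural markers were not analysed here, because none of the identifiers could be paired with gene symbols, so the labelled stages were not checked against markers.

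KBTBD8 mRNA was lower in shKBTBD8 cells than in shControl cells of the first set at hES, ND1 and ND3, and this was the check of the targeted gene. At hES it measured 3.55 [2.87 to 4.34] and 3.40 [2.73 to 4.19] CPM in shKBTBD8 libraries, against 19.8 [18.0 to 21.8] and 12.9 [11.5 to 14.5] CPM in shControl libraries. At ND1 it measured 1.99 CPM in each of the shKBTBD8 libraries, against 10.3 and 9.17 CPM in shControl libraries. At both stages every shKBTBD8 library lay far below every shControl library, and the shKBTBD8 mean was 21.2% of the shControl mean at hES and 20.4% at ND1. The gap narrowed later. At ND3 the values were 1.82 and 2.26 CPM in shKBTBD8 libraries, against 5.17 and 4.44 CPM in shControl libraries, or 42.5% of the shControl mean. At ND6 they were 1.52 and 0.885 CPM in shKBTBD8 libraries, against 2.36 and 2.33 CPM in shControl libraries, or 51.3%. At ND6 the shKBTBD8 libraries held 36 and 14 KBTBD8 reads and the shControl libraries 50 and 56, so the remaining difference of 1.14 CPM rests on few reads.

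**Figure D1:**
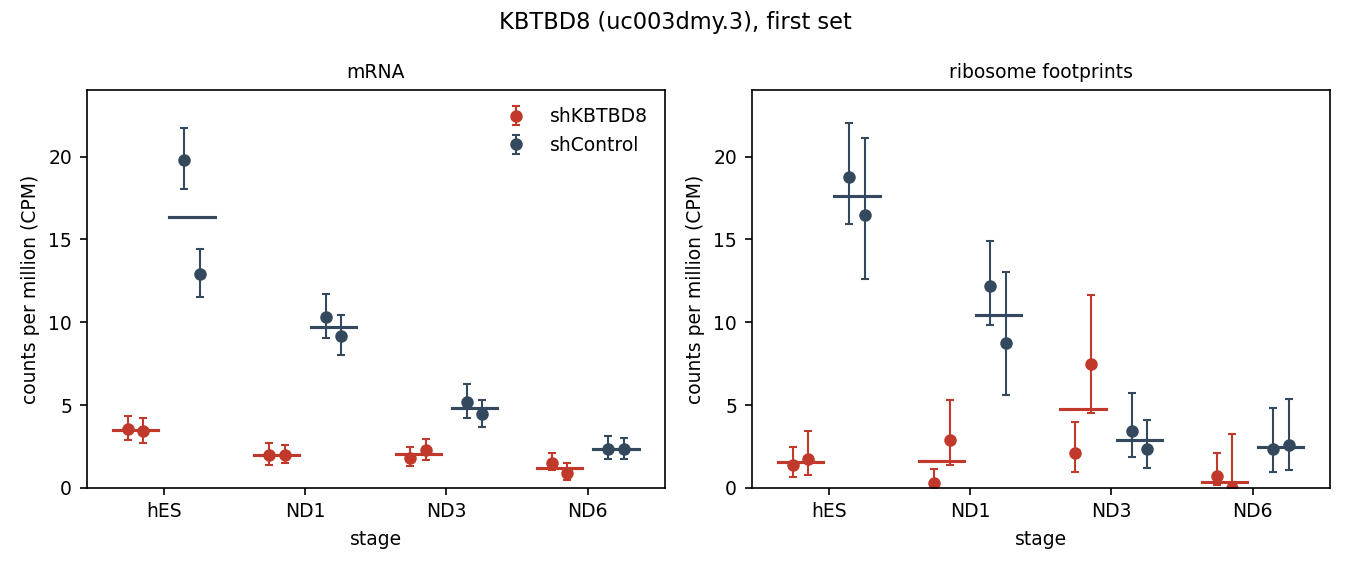
KBTBD8 in the first set: CPM (vertical axis) at each stage (horizontal axis) in mRNA (left) and ribosome footprints (right), 2 libraries per group as points with exact Poisson 95% intervals and horizontal lines at the group means. In mRNA both shKBTBD8 libraries lie below both shControl libraries at all 4 stages, while in footprints 1 shKBTBD8 library at ND3 (7.47 CPM) lies above both shControl libraries.

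In edgeR's quasi-likelihood test over 17659 transcripts, with Benjamini-Hochberg adjustment, the log2 change of KBTBD8 mRNA in shKBTBD8 cells was -2.23 ± 0.24 (SE) at hES, with an adjusted p of 0.00108. Only 0.119% of transcripts were called lower at that stage, and KBTBD8 had the 2nd smallest p of all. At ND1 the change was -2.29 ± 0.25 with an adjusted p of 0.000484 (edgeR), where 0.674% of transcripts were called lower, and KBTBD8 ranked 8th by p. At ND3 it was -1.23 ± 0.26 with an adjusted p of 0.00759 (edgeR), where 3.92% of transcripts were called lower, and KBTBD8 ranked 625th. At ND6 the change of -0.91 ± 0.30 was not called (edgeR adjusted p = 0.115; 1.91% of transcripts were called lower). In mRNA, same-numbered libraries of a stage deviated together, and with a term for stage and number the ND6 change was -0.93 with an edgeR adjusted p of 0.0251, a fit that called 9.97% of transcripts lower. The hES call was lost when edgeR was fitted on the 4 hES libraries alone (change -2.24, adjusted p = 0.817), and the ND3 call without shControl replicate 1 of ND3 (-1.12, adjusted p = 0.0748) or without shKBTBD8 replicate 1 of ND3 (-1.08, adjusted p = 0.0961).

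Both shKBTBD8 libraries lay below both shControl libraries at 4 of 4 stages in mRNA. For a transcript taken at large, this arrangement occurred in 13.5% of cases at hES, 22.2% at ND1, 26.9% at ND3 and 23% at ND6. How many transcripts show it at all 4 stages was not counted. Averaged over the stages, the change was -1.67 ± 0.13 (edgeR adjusted p = 2.58e-06, 6.19% of transcripts called lower), which leaves 31.5% of the shControl level (95% interval 26.0% to 38.2%). An exact permutation test of log2 CPM within stages, two-sided, gave a mean difference of -1.65 and p = 0.00154, the smallest that its 1296 arrangements allow, and 0.00617 after adjustment over the family of 4 tests. In these bulk samples, fewer cells that express KBTBD8 and less KBTBD8 RNA per cell cannot be told apart.

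The change at ND3 was 1.01 ± 0.35 above that at hES on the log2 scale, and the change at ND6 was 1.32 ± 0.38 above it. Neither difference passed the threshold (edgeR adjusted p = 0.219 and 0.165). With the term for stage and number both passed it: 0.99 with an edgeR adjusted p of 0.0313 at ND3, where 6.25% of transcripts were called higher, and 1.28 with an edgeR adjusted p of 0.0269 at ND6, where 4.36% were. At ND1 the change differed from that at hES by -0.05, with a 95% interval from -0.77 to 0.66. In shKBTBD8 cells KBTBD8 mRNA averaged 3.48 CPM at hES, 1.99 at ND1, 2.04 at ND3 and 1.20 at ND6. In shControl cells the 4 means were 16.4, 9.74, 4.80 and 2.35 CPM, and shKBTBD8 minus shControl gave -12.9, -7.75, -2.76 and -1.14 CPM at the successive stages. The gap in CPM thus became smaller at each stage, as the shControl level did.

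Without the hairpin against it, KBTBD8 mRNA of the first set declined at each sampled stage of neural conversion. In shControl cells the ND1 mean was 59.4% of the hES mean, the ND3 mean 29.3% and the ND6 mean 14.3%. Relative to hES, the log2 change was -0.75 ± 0.22 at ND1 (edgeR adjusted p = 0.0207), -1.77 ± 0.23 at ND3 (adjusted p = 2.41e-05) and -2.80 ± 0.25 at ND6 (adjusted p = 3.09e-07). Falling transcripts were common in shControl cells: 13.6% of all transcripts were called lower at ND1, 23.8% at ND3 and 29.4% at ND6. Between neighbouring stages the change was -1.02 ± 0.23 at ND3 against ND1 (edgeR adjusted p = 0.00324, 16.8% called lower) and -1.03 ± 0.25 at ND6 against ND3 (edgeR adjusted p = 0.0108, 10.1% called lower). The order of levels was therefore hES, ND1, ND3 and ND6 from high to low, with each step past the threshold.

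Some of these steps rest on single libraries. Without hES shControl replicate 1, the library with 19.8 CPM, the ND1 step was -0.41 (edgeR adjusted p = 0.241). It also missed the threshold without shControl replicate 1 of ND1 (-0.84, adjusted p = 0.0747) or replicate 2 of ND1 (-0.66, adjusted p = 0.144), and when fitted on the 4 libraries alone (-0.74, adjusted p = 0.0649). The ND6 step from ND3 missed it without shControl replicate 1 of ND3 (-0.92, adjusted p = 0.0740), replicate 1 of ND6 (-1.04, adjusted p = 0.0716) or replicate 2 of ND6 (-1.02, adjusted p = 0.0647). The changes at ND3 and ND6 relative to hES passed it whichever of the 16 mRNA libraries was left out.

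The KBTBD8 footprints of the first set were lower in shKBTBD8 than in shControl libraries at hES and ND1, though on few reads. At ND6 they were lower on average, but that mean includes a library with 0 reads, which does not separate from shControl. At hES they measured 1.35 [0.648 to 2.48] and 1.75 [0.756 to 3.45] CPM in shKBTBD8 libraries, from 10 and 8 reads, against 18.8 [15.96 to 22.0] and 16.5 [12.6 to 21.1] CPM in shControl libraries, from 155 and 62 reads. The intervals of the groups lie far apart, and the shKBTBD8 mean was 8.8% of the shControl mean. At ND1 they measured 0.316 and 2.89 CPM in shKBTBD8 libraries (2 and 10 reads), against 12.2 and 8.76 CPM in shControl libraries (93 and 24 reads). The shKBTBD8 libraries differed widely from each other there, but both lay below the shControl libraries.

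The library labelled ND3 shKBTBD8 replicate 2 did not follow this pattern. It held 7.47 [4.50 to 11.7] KBTBD8 footprint CPM from 19 reads, while shKBTBD8 replicate 1 held 2.09 [0.957 to 3.97] from 9, against 3.42 [1.87 to 5.73] and 2.36 [1.22 to 4.11] CPM in shControl libraries, from 14 and 12. This library was also 1 of the 3 with the most transcripts at 0, and its part in the result was not tested beyond leaving it out: the shKBTBD8 level at ND3 was 166% of the shControl mean with it and 72.5% without it. In mRNA the same replicate number held 2.26 CPM, below both shControl libraries. At ND6 shKBTBD8 replicate 1 had 3 KBTBD8 reads (0.721 CPM) and replicate 2 had 0, against 7 reads in each shControl library (2.33 and 2.61 CPM). Replicate 2 of ND6 was the shallowest of all libraries, with 1.03 M counts, and 3 reads in it would be 2.64 CPM, above the shControl mean of 2.47, so its 0 does not separate it from shControl. From the pooled 3 reads in shKBTBD8 against 14 in shControl, the ND6 level was 23% of shControl, with an exact counting interval from 4.2% to 82.4%.

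None of the stage changes in KBTBD8 footprints passed edgeR's threshold over 16740 transcripts. The log2 change was -3.50 ± 1.10 at hES, -2.78 ± 1.10 at ND1, 0.70 ± 1.04 at ND3 and -2.22 ± 1.33 at ND6, with adjusted p = 1, 1, 0.910 and 1. Single libraries weigh heavily here: the ND1 change was -4.96 without shKBTBD8 replicate 2 of ND1 and -1.84 without replicate 1, and the ND6 change was -1.74 without shKBTBD8 replicate 2 of ND6. Without replicate 1 of ND6 only the library with 0 reads remained, and the fitted value of -6.49 then depends on the prior count. At hES edgeR called 0 transcripts lower (0% of those tested), 200 transcripts had an unadjusted p under 0.05, and DESeq2 called 1 in either direction. The share called lower was 0.0119% at ND1, 0.114% at ND3 and again 0% at ND6. Averaged over stages the footprint change was -1.95 ± 0.57, a level of 25.9% of shControl (95% interval 11.5% to 58.4%), with an edgeR adjusted p of 0.228 where 0.215% of transcripts were called lower, and with DESeq2 the change was -1.96 and the adjusted p 0.0330 (0.472% called lower). Without shKBTBD8 replicate 2 of ND3 the averaged change was -2.24 (edgeR adjusted p = 0.0970), or 21.2% of shControl, and over all libraries left out in turn it ran from -3.02, without shKBTBD8 replicate 1 of ND6, to -1.72, without shKBTBD8 replicate 1 of ND1. The -3.02 includes the ND6 value set by the prior count and is given as no level. The exact permutation test within stages gave a mean log2 difference of -1.87 with p = 0.0108 (two-sided), or 0.0216 after adjustment over its family of 4. Without replicate 2 of ND3 the same exact test gave -2.08 (adjusted p = 0.00617), and without replicate 2 of ND6 -1.70 (adjusted p = 0.0340). Both reruns were chosen after seeing the data. The ND3 library left out lay above shControl, so the smaller p without it follows from that choice and is no added support. Both shKBTBD8 libraries lay below both shControl libraries at 3 of 4 stages in footprints. This arrangement was found for 13.3% of transcripts at hES, 17.1% at ND1, 18.2% at ND3 and 18.6% at ND6. The share of transcripts with it at several stages together was not counted. ND6 is among the 3 through the library with 0 reads, whose limit of 2.64 CPM lies above both shControl libraries, so hES and ND1 are the 2 stages that do not rest on a count of 0.

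In shControl cells of the first set, KBTBD8 footprints stood at 17.6 ± 1.63 CPM at hES, 10.5 ± 2.41 at ND1, 2.89 ± 0.752 at ND3 and 2.47 ± 0.199 at ND6 (mean ± SD, n = 2 each). The ND3 and ND6 libraries overlapped. The ND6 mean was 14% of the hES mean, beside 14.3% in mRNA. The log2 changes relative to hES were -0.75 ± 0.98 at ND1, -2.61 ± 1.05 at ND3 and -2.83 ± 1.09 at ND6. None passed edgeR's threshold (adjusted p = 0.997, 0.163 and 0.0848), with 0.514%, 3.74% and 8.77% of transcripts called lower, while DESeq2 called the ND6 change (-2.81, adjusted p = 0.0248, 10.2% called lower). Fitted on the 4 libraries compared, edgeR called both later changes, with an adjusted p of 0.00792 at ND3 (3.29% called lower) and of 0.00293 at ND6 (13.8%). Leaving out either of the ND3 shKBTBD8 libraries gave an ND6 change of -2.81 in each case.

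**Figure D2:**
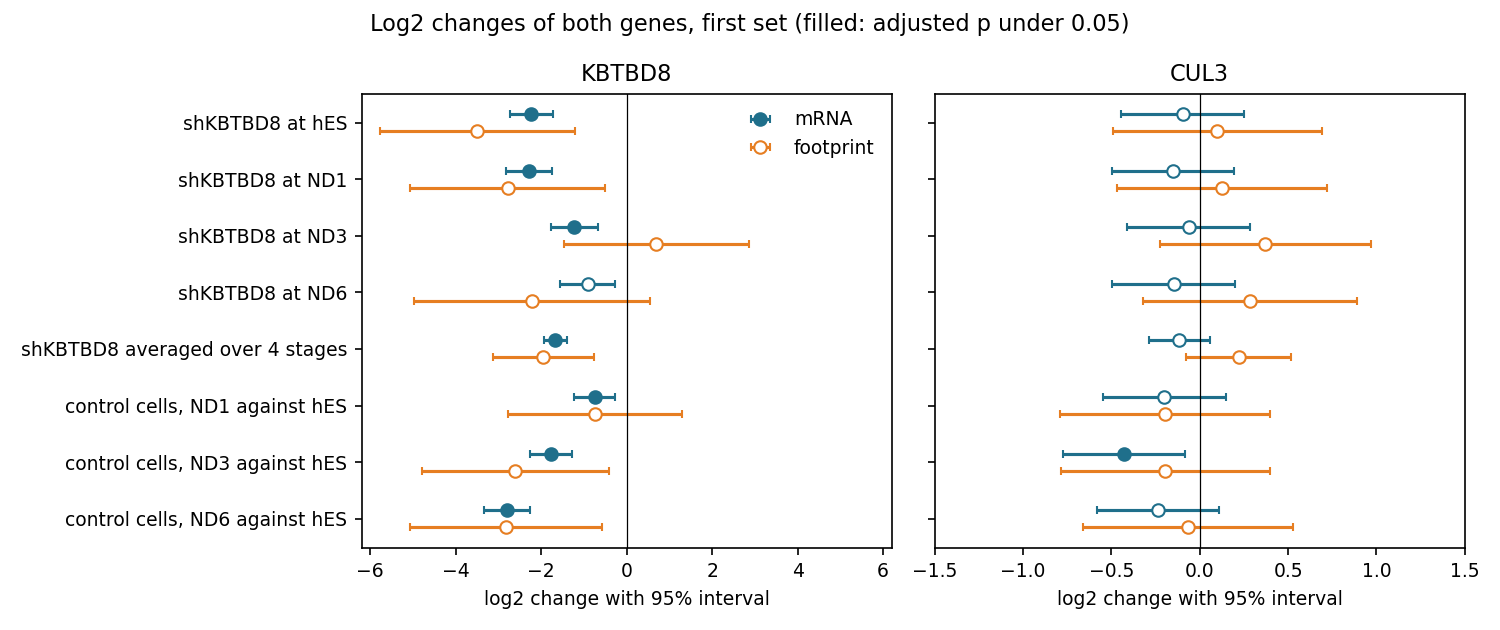
Log2 changes of KBTBD8 (left) and CUL3 (right) in the first set with 95% intervals from edgeR, for mRNA (blue) and footprints (orange); the upper rows set shKBTBD8 against shControl and the lower rows set later stages of shControl cells against hES. Filled points have an adjusted p under 0.05, and the axis of CUL3 is expanded: its changes lie between -0.43 and 0.37, those of KBTBD8 between -3.50 and 0.70.

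Footprints per mRNA, the translational efficiency, gave no called change for KBTBD8. In shControl libraries of the first set the ratio of footprint CPM to mRNA CPM lay between 0.531 and 1.28. In shKBTBD8 libraries it ran from 0 to 3.30, and the extremes were the 2 replicate 2 libraries at ND6 and ND3 described above. At hES it was 0.381 and 0.514 in shKBTBD8 libraries, against 0.949 and 1.28 in shControl libraries. Those shKBTBD8 ratios rest on 10 and 8 footprint reads. In one edgeR model over the 32 libraries, the log2 change in efficiency was -1.31 ± 0.84 at hES, -0.65 ± 0.89 at ND1, 1.82 ± 0.88 at ND3 and -1.21 ± 1.21 at ND6 (adjusted p at least 0.970). The ND3 value thus had the opposite sign to the others, and it was 3.13 ± 1.22 above that at hES (edgeR adjusted p = 1). Without the footprint library of ND3 shKBTBD8 replicate 2, the ND3 change was 0.78 and its difference from hES 2.09, and without replicate 1 they were 2.52 and 3.84. Each refit left 1 footprint library in that group, so only the changes are given. Averaged over stages of unlike sign, the change was -0.34 ± 0.48 with a 95% interval from -1.33 to 0.66 (edgeR adjusted p = 1). It was -0.61 without footprint replicate 2 of ND3 and -1.82 without footprint replicate 1 of ND6. The -1.82 includes an ND6 value set by the prior count, since only the library with 0 reads remained, and is given as no level. For the average change edgeR called 0 of 17680 transcripts (0% lower), 478 had an unadjusted p under 0.05 and DESeq2 called 1. The 95% interval of the averaged change spans 39.7% to 158% of the shControl efficiency, so it includes both lower and higher efficiency.

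In the second set KBTBD8 mRNA was again lower in the shKBTBD8 libraries than in shControl libraries. At hES it measured 9.57 [8.36 to 10.9] CPM in the shKBTBD8 library and 23.6 [21.6 to 25.6] in the shTCOF1 library, against 16.5 [14.2 to 19.0] and 17.0 [15.4 to 18.8] in shControl libraries. At ND3 it measured 4.52 [3.78 to 5.37] CPM in the shKBTBD8 library and 9.29 [8.20 to 10.5] in the shTCOF1 library, against 8.30 [7.26 to 9.46] in the shControl library. The shKBTBD8 library was the lowest at both stages, at 57.1% of the shControl mean at hES and 54.5% at ND3. How many transcripts have the shKBTBD8 library lowest at both stages was not counted. In CPM, shKBTBD8 minus shControl was -7.18 at hES and -3.78 at ND3, beside -12.9 and -2.76 in the first set. The shTCOF1 library was the highest at both, at 141% and 112%, and at ND3 its counting interval overlapped that of shControl. The share of transcripts with that order was likewise not counted.

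In the additive edgeR fit over 7 libraries, with 0.00568% of transcripts called lower for shKBTBD8, KBTBD8 mRNA changed by -0.82 ± 0.14 in shKBTBD8 cells (adjusted p = 0.137), and DESeq2 gave -0.83 with an adjusted p of 0.00371 (0.375% called lower). In shTCOF1 cells the change was 0.36 ± 0.13 (edgeR adjusted p = 0.924), a comparison in which edgeR called 0 transcripts, 939 had an unadjusted p under 0.05 and DESeq2 called 22. In the second set the lower KBTBD8 mRNA of shKBTBD8 cells was thus called by DESeq2 and not by edgeR. At hES the shKBTBD8 change was 1.42 ± 0.34 less negative in the second set than in the first on the log2 scale (edgeR adjusted p = 0.109; DESeq2 adjusted p = 0.0485, 0.679% called higher), and without hES shControl replicate 2 of the first set the difference was 1.71 (edgeR adjusted p = 0.0292). At ND3 the sets differed by 0.34 ± 0.39 (edgeR adjusted p = 0.864). In the second set shKBTBD8 had 1 library at each stage and shControl had 1 at ND3, so the errors and p-values of these differences take the spread from other groups and assume that the single libraries vary like them. For the refit without hES shControl replicate 2 of the first set, the share of transcripts called is not given. Fitted over both sets with the set as a term, the shKBTBD8 change in mRNA was -1.63 at hES (edgeR adjusted p = 0.0164, 0.0113% called lower) and -1.07 at ND3 (edgeR adjusted p = 0.0454, 0.9% called lower).

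**Figure D3:**
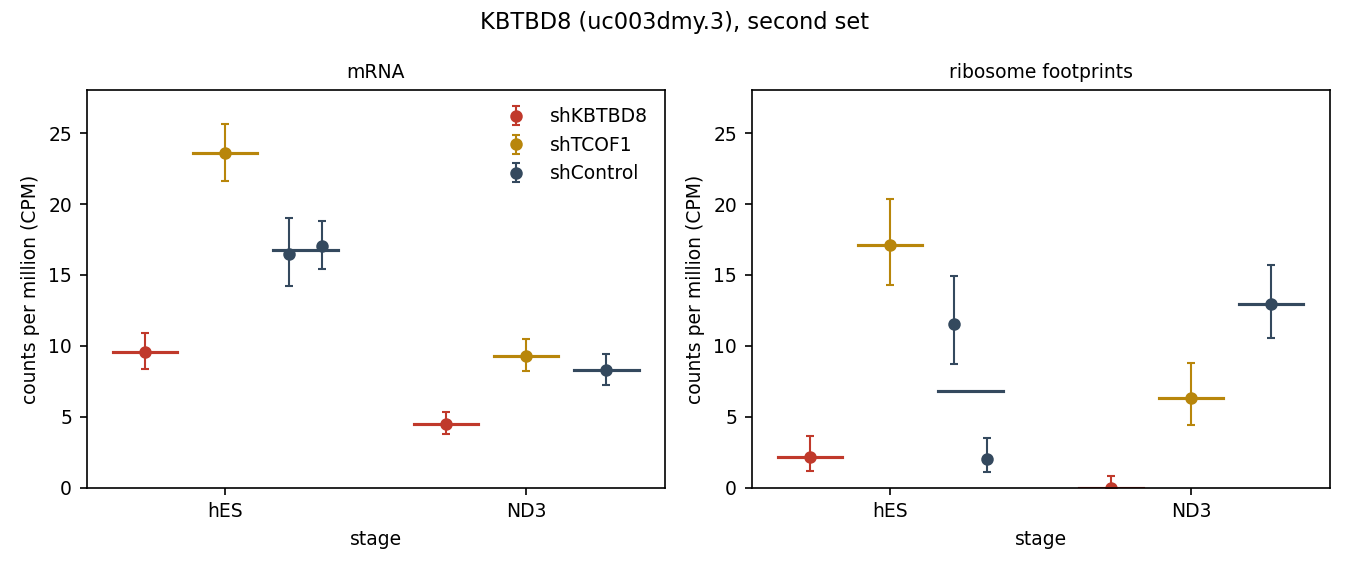
KBTBD8 in the second set: CPM (vertical axis) at hES and ND3 (horizontal axis) in mRNA (left) and ribosome footprints (right), with each library as a point, its exact Poisson 95% interval and a horizontal line at the group mean. The shKBTBD8 library is lowest at both stages in mRNA, and how common that order is among transcripts was not counted. In footprints 1 shControl library at hES (2.06 CPM) lies at the level of the shKBTBD8 library (2.18 CPM).

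Footprints of the second set went against a label at hES. The library labelled hES shControl replicate 2 held 2.06 [1.10 to 3.53] KBTBD8 footprint CPM from 13 reads, at the level of the shKBTBD8 library with 2.18 [1.19 to 3.66] CPM from 14, whereas shControl replicate 1 held 11.5 [8.73 to 14.9] from 57. The shTCOF1 library held 17.1 [14.3 to 20.3] CPM from 129 reads. The mRNA library with the same label held 17.0 CPM, and the CUL3 footprints of the 2 shControl libraries were alike, at 131 and 135 CPM. This footprint library was also the one of the second set with 16.4% of transcripts at 0; whether its label or its quality bears on the KBTBD8 value was not tested. The shKBTBD8 level at hES was 32.2% of the shControl mean with it and 19.0% without it.

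At ND3 of the second set the shKBTBD8 library had no KBTBD8 footprint, against 35 reads in the shTCOF1 library (6.31 [4.40 to 8.78] CPM) and 104 in the shControl library (12.96 [10.6 to 15.7] CPM). Taking 3 reads in that library as the limit that a count of 0 allows, 0.678 CPM, its level was at least 19.1-fold lower than the measured shControl value. At the nearest limits of the 2 exact intervals, 0.833 CPM in shKBTBD8 and 10.6 CPM in shControl, the fold was 12.7. That shControl library is the one with 13.2% of transcripts at 0, and its part in these values was not tested. The shTCOF1 library held 48.7% of the shControl level at this stage and 252% of the shControl mean at hES (148% without the library labelled replicate 2), so its direction differed between the stages. Over the stages, shControl footprints of KBTBD8 in this set were higher at ND3 (12.96 CPM) than at hES (mean 6.79 CPM, or 11.5 without the library labelled replicate 2), the opposite direction to the first set, while shControl mRNA was lower at ND3, at 49.6% of the hES mean. ND3 had 1 shControl library, and this stage difference was not tested. In edgeR the KBTBD8 footprint change was called for neither hairpin in this set (adjusted p = 0.989 for shKBTBD8 and 1 for shTCOF1). For both hairpins edgeR called 0 transcripts, 717 and 282 had an unadjusted p under 0.05, and DESeq2 called 21 and 5. Without the library labelled hES shControl replicate 2, the adjusted p for shKBTBD8 was 0.916.

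CUL3 mRNA kept to a narrow range of levels in the first set. It lay between 86.1 and 129 CPM in shKBTBD8 libraries and between 94.5 and 136 CPM in shControl libraries. At hES it measured 129 and 110.5 CPM in shKBTBD8 libraries, against 136 and 120 CPM in shControl libraries. At ND1 the values were 115 and 86.1 CPM in shKBTBD8 libraries, against 122 and 101 CPM in shControl libraries. The groups overlapped at these and at the later stages: at ND3 shKBTBD8 libraries had 95.5 and 86.5 CPM, against 94.5 and 95.7 CPM in shControl libraries, and at ND6 they had 106 and 90.2 CPM, against 119 and 98.4 CPM.

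**Figure D4:**
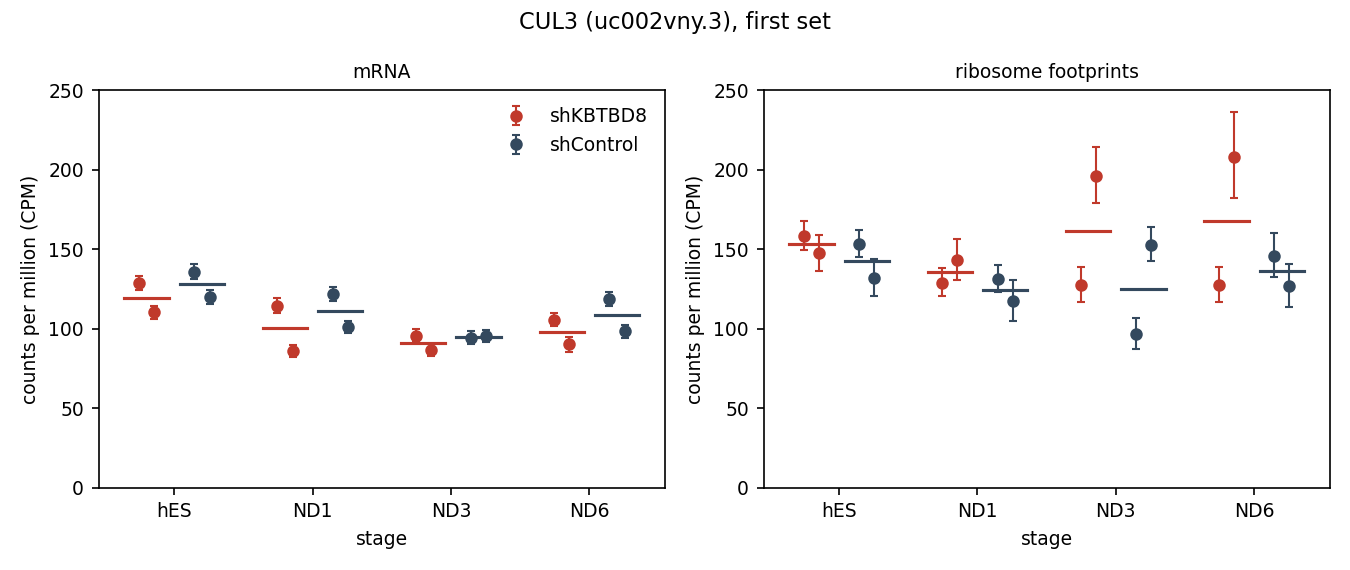
CUL3 in the first set: CPM (vertical axis) at each stage (horizontal axis) in mRNA (left) and ribosome footprints (right), 2 libraries per group as points with exact Poisson 95% intervals and horizontal lines at the group means. The groups overlap at every stage in mRNA, and in footprints the highest libraries are shKBTBD8 replicate 2 at ND3 (196 CPM) and at ND6 (208 CPM).

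The log2 change of CUL3 mRNA in shKBTBD8 cells was -0.10 at hES, -0.15 at ND1, -0.06 at ND3 and -0.15 at ND6, and none passed edgeR's threshold (adjusted p from 0.740 to 1). At hES the 95% interval ran from -0.44 to 0.25, so a CUL3 level under 73.6% or over 119% of shControl lay outside it. Averaged over stages the change was -0.11 ± 0.08 (edgeR adjusted p = 0.380), a level of 92.4% of shControl with an interval from 81.9% to 104%. With the term for stage and number the averaged change of -0.12 passed the threshold (edgeR adjusted p = 0.0465, 18.3% called lower). The exact permutation test within stages, which ignores the numbers, gave -0.12 with p = 0.139 (0.144 after adjustment).

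CUL3 footprints in the first set lay between 127 and 208 CPM in shKBTBD8 libraries and between 96.7 and 154 CPM in shControl libraries. Their log2 change in shKBTBD8 cells was 0.10 ± 0.29 at hES, 0.13 ± 0.29 at ND1, 0.37 ± 0.29 at ND3 and 0.29 ± 0.29 at ND6, and 0.22 ± 0.14 on average, with no edgeR adjusted p below 0.821. The highest values, 196 CPM at ND3 and 208 CPM at ND6, were those of the same shKBTBD8 replicate 2 libraries that had 21.8% of transcripts at 0. Without replicate 2 of ND3, the ND3 mean of shKBTBD8 was 102% of shControl, against 130% with it. Without replicate 2 of ND6, the ND6 mean was 93.4% of shControl, against 123% with it. The averaged change was 0.13 without the ND3 library and 0.12 without the ND6 library. The ratio of CUL3 footprints to mRNA was 1.13 to 2.31 in shKBTBD8 libraries and 1.02 to 1.60 in shControl libraries, and its change averaged over stages was 0.30 ± 0.16 (edgeR adjusted p = 1). None of the differences of the CUL3 change between a later stage and hES was called by edgeR in either assay (adjusted p at least 0.985).

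During neural conversion of shControl cells in the first set, CUL3 mRNA averaged 128 ± 11.2 CPM at hES, 111 ± 14.7 at ND1, 95.1 ± 0.884 at ND3 and 109 ± 14.4 at ND6 (mean ± SD, n = 2 each). The ND3 change relative to hES, -0.43 ± 0.16, passed edgeR's threshold (adjusted p = 0.0417), in a comparison where 23.8% of transcripts were called lower. Those at ND1 (-0.20 ± 0.16, adjusted p = 0.392) and ND6 (-0.24 ± 0.16, adjusted p = 0.221) did not pass it in edgeR. The ND3 call was lost when edgeR was fitted on the 4 libraries alone (adjusted p = 0.108) and without any 1 of 5 libraries: hES shControl replicate 1 (-0.34, adjusted p = 0.196), either ND3 shControl library (adjusted p = 0.131 and 0.116) or either ND3 shKBTBD8 library (adjusted p = 0.0527 for both). CUL3 footprints changed by -0.20, -0.19 and -0.07 at ND1, ND3 and ND6, none of them called by edgeR (adjusted p at least 0.799).

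In the second set CUL3 mRNA was 126 and 131 CPM in shKBTBD8 libraries at hES and ND3 and 119 and 117 CPM in shTCOF1 libraries, against 136 and 129 CPM in shControl libraries at hES and 119 CPM at ND3. CUL3 footprints were 126 and 117.5 CPM in shKBTBD8 libraries and 134 and 155 CPM in shTCOF1 libraries, against 131 and 135 CPM in shControl libraries at hES and 125.5 CPM at ND3. The fitted changes lay between -0.11 and 0.15 (log2) for both hairpins and assays, with no edgeR adjusted p below 0.961. For shKBTBD8 the interval in mRNA ran from 87.7% to 117% of shControl.

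Between the 2 genes, levels were compared per unit of the deposited length value. In shControl mRNA of the first set KBTBD8 stood at 16.5% of the CUL3 level at hES, 11.2% at ND1, 6.5% at ND3 and 2.8% at ND6. In footprints the 4 values were 15.9%, 10.8%, 3.0% and 2.3%. In shControl cells of the first set KBTBD8 mRNA thus went down relative to CUL3 mRNA at each stage. In footprints the last step is not resolved, since the KBTBD8 levels of the ND3 and ND6 libraries overlapped. In shControl libraries of the second set KBTBD8 stood at 8.9% of CUL3 at ND3 and 16.3% at hES in mRNA, but at 13.3% at ND3 and 6.6% at hES in footprints, so there the footprint share was higher at the later stage. The hES footprint value includes the library labelled replicate 2 that went against its label. In shKBTBD8 mRNA of the first set KBTBD8 stood at 3.7%, 2.6%, 2.9% and 1.6% of CUL3 from hES to ND6. In shKBTBD8 footprints it stood at 1.3%, 1.5%, 3.8% and 0.3%, where the ND3 and ND6 values include the replicate 2 libraries described above. By rank within a library, per length, 32.3% to 44.6% of transcripts lay below KBTBD8 in shControl mRNA at hES and 7.9% to 8.1% at ND6. For CUL3, 79.6% to 85.0% of transcripts lay below it in shControl mRNA over all stages.

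The transcripts whose course was most like each gene were taken by Pearson's r of log2 CPM over the 8 shControl mRNA libraries of the first set, among 15969 transcripts. For KBTBD8 they were uc003ldc.5 (r = 0.998) and uc021ooc.1 (r = 0.997), and 9.95% of transcripts had an r above 0.9, so a like decline was common. Their mean levels at hES and ND6 were 202 and 75.0 CPM for uc003ldc.5 and 810 and 68.2 CPM for uc021ooc.1. For CUL3 they were uc003guv.4 (r = 0.977) and uc001rpr.3 (r = 0.963), and 0.29% of transcripts had an r above 0.9. These r values describe 8 libraries that share stages and depth, and the identifiers were not paired with gene names.

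The reads of both genes can be shared with neighbouring rows. KBTBD8 was linked by proportional counts with row uc011bfv.2, which has 24.1% of its length value and 23.6% of its total count. That link was near the limit: chi-square per degree of freedom was 1.91, where under 2 was required. The count was identical in 3 libraries. CUL3 counts were nearly those of rows uc010fwy.2 (99.6% of its total, with the identical count in 21 libraries) and uc010zls.2 (92.8%). The values therefore describe each gene's reads over rows that may overlap, not 1 isoform, and sharing with near-identical copies elsewhere was not examined.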

How the data were processed

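The deposited values are whole-number read counts, 1 per transcript row, as the authors deposited them; the submitters' processing notes name CASAVA 1.8, Bowtie2 2.0.6, TopHat2 2.0.7 and the hg19 build. Of the counting program, strand and treatment of multiply mapped reads, the sources used here say nothing. The labels' protocols describe RNase I digestion and ribosome pelleting for footprints. The deposited files also give a length value per row.

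Rows whose mean count reached 10 were linked when within 20 rows of each other and proportional over the 46 libraries (chi-square per degree of freedom under 2), and 1 row per group was kept, giving 17680 transcripts. Counts were tested with edgeR 4.0.16 in R 4.3.3 (TMM, filterByExpr, quasi-likelihood F-test, Benjamini-Hochberg over all transcripts, threshold 0.05). The first set shared 1 model of 8 groups per assay; efficiency was the interaction of assay and group in 1 model; the second set had stage and hairpin as additive terms; the sets were compared in 1 model per assay. Standard errors come from the F statistic. CPM used TMM-scaled totals, with a prior count of 2 for log2 CPM in the permutation tests and correlations. Alternatives were DESeq2 1.42.0, its size factors, no filter, every deposited row, only the groups compared, replicate terms, both sets together and leaving out each library. Scripts were tested on simulated data.

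In the labels, replicate numbers recur in each group. The differences between replicates 1 and 2 were correlated across transcripts between groups. Between shKBTBD8 and shControl of a stage, r in mRNA was 0.841, 0.602, 0.267 and 0.557 (hES to ND6). Between mRNA groups of different stages it ran from -0.089 to 0.559. The hES groups against those of later stages gave -0.089 to 0.282, so the deviation shared at hES was largely particular to it. The highest value, 0.559, was between ND1 and ND6 of shKBTBD8, so after hES part of the deviation was shared across stages. In footprints the values within a stage were 0.450, 0.055, 0.173 and 0.130. The main fits and the permutation tests ignored the numbers, and the fits with a term for them are alternatives. A term for stage and number, and permutation tests without a library, were added after seeing the data. No 2 libraries of a group agreed within counting noise.

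The genes, lists and tests were chosen with earlier results of these data known. Named transcripts are both member rows and, for each, the 2 most correlated transcripts. Gene lists of CUL3 ligase parts, BTB adaptors, KBTBD8 partners and cell type markers could not be applied, since 0 of 63691 identifiers matched the gene tables used here. For the same reason no sequence is shown.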

Additional observations from a re-analysis of the deposited data

How the results depend on the processing

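Over alternative settings other than leaving out a library, 439 values of both genes kept their direction and side of the threshold, 10 passed it only there, 3 no longer passed it and 4 changed sign. These totals, and those below for libraries left out, cover a chosen part of the contrasts and only fits with an adjusted p. Not among them is the KBTBD8 footprint change at ND3 in the second set less the first, -9.76 in edgeR. The second-set shKBTBD8 library there had 0 reads, so that value depends on the prior count. All values here are log2 changes, and the cause was not tested. With DESeq2, KBTBD8 mRNA in shKBTBD8 cells of the second set (-0.833), its difference between sets at hES (1.41), the averaged KBTBD8 footprint change (-1.96) and that at ND6 in shControl cells (-2.81) were called. Fitted on only the groups compared, where 4 libraries give the spread, the KBTBD8 mRNA change at hES (-2.24), its ND1 change in shControl cells (-0.739) and the CUL3 ND3 change (-0.429) were not called, and the KBTBD8 footprint changes at ND3 (-2.60) and ND6 (-2.82) were. Signs changed with every deposited row for CUL3 mRNA in the second set (-0.001) and KBTBD8 efficiency at ND1 in shControl cells (0.004), and with both sets together for CUL3 mRNA (0.018) and KBTBD8 footprints (-1.24) at ND3.

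With a replicate block within stage, added after seeing the data, the calls gained were KBTBD8 mRNA at ND6 (-0.932), its difference from hES at ND3 (0.994) and ND6 (1.28) and averaged CUL3 mRNA (-0.117), and no other call of either gene changed. Numbers of mRNA transcripts called for shKBTBD8 at hES, ND1, ND3 and ND6 were 695, 2421, 5099 and 3524 with it, 103, 574, 2503 and 1286 with 1 term per number, and 32, 215, 1488 and 705 without. A single term per replicate number changed no call of either gene (KBTBD8 mRNA at ND6 was -0.934, edgeR adjusted p = 0.0567). In the second set the groups compared share fewer than 2 numbers, so no block was fitted there. DESeq2 called 119 and 458 mRNA transcripts at hES and ND1, and 123 for shKBTBD8 in the second set, where edgeR called 4.

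Without 1 library at a time, 1375 values kept their direction and side of the threshold, 13 no longer passed it, 5 passed it only there and 56 changed sign. Called changes that lost their call gave these ranges: KBTBD8 mRNA at ND3 -1.39 to -1.08, in shControl cells at ND1 -1.03 to -0.410 and at ND6 against ND3 -1.15 to -0.918, and CUL3 mRNA at ND3 in shControl cells -0.514 to -0.337. Changes called without some library were KBTBD8 footprints at ND6 in shControl cells (-2.89 to -2.71), the KBTBD8 mRNA difference of ND6 from hES (0.834 to 1.61), that between sets at hES (1.07 to 1.71) and the KBTBD8 efficiency difference of ND3 from hES (2.09 to 3.84). The share of all transcripts called in those refits is not given. Ranges that kept their sign and were never called include KBTBD8 mRNA at ND6 (-1.40 to -0.624) and KBTBD8 footprints at hES (-3.69 to -3.31), ND1 (-4.96 to -1.84) and ND6 (-6.49 to -1.74) and averaged (-3.02 to -1.72). The ends at -6.49 and -3.02 depend on the prior count. The ranges that span 0 were never called. For KBTBD8 they were -0.394 to 0.224 for the mRNA difference of ND1 from hES, and in footprints -0.459 to 1.38 at ND3, -1.47 to 1.66 and -2.99 to 1.76 for the differences of ND1 and ND6 from hES, -0.447 to 0.082 for ND6 against ND3 in shControl cells and -0.382 to 1.88 for shTCOF1. KBTBD8 efficiency gave -2.74 to 0.393 at ND1 in shKBTBD8 cells, and in shControl cells -0.370 to 0.264 at ND1 and -0.461 to 0.173 at ND6. For CUL3 mRNA they were -0.212 to 0.011 at hES, -0.382 to 0.041 at ND1, -0.136 to 0.007 at ND3, -0.054 to 0.102 in the second set, -0.092 to 0.142 between sets at hES, and -0.282 to 0.138, -0.085 to 0.149 and -0.180 to 0.092 for ND1, ND3 and ND6 less hES. For CUL3 footprints they were -0.003 to 0.205 at hES, -0.103 to 0.588 at ND6, -0.083 to 0.126, -0.080 to 0.655 and -0.203 to 0.489 for ND1, ND3 and ND6 less hES, and in shControl cells -0.566 to 0.111 at ND3 and -0.161 to 0.071 at ND6. CUL3 efficiency in shControl cells gave -0.162 to 0.133, -0.133 to 0.464 and -0.032 to 0.253 at ND1, ND3 and ND6. Where 1 library was left in a group, it was assumed to vary like the others.

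Low footprint counts of KBTBD8 limit what can be seen: with at most 19 reads per library at ND3 and ND6 of the first set, their counting intervals are wide. Mean levels moved beyond the spread in 1 of 56 cases with DESeq2's size factors and in 51 with totals over every deposited row, which count shared reads repeatedly.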
